A study of Homo sapiens with 12 samples.

Results

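The 8 genes described here encode secreted growth factors of the VEGF, FGF and PDGF families: VEGFA, VEGFB, VEGFC, PGF, FGF2, PDGFA, PDGFB and PDGFC. They were taken by name, and all 8 were listed in both deposited tables, 8 of the 16633 genes listed in either table. The cells were wild-type HT1080, a line of human fibrosarcoma cells, and every culture was kept in biotin-depleted medium and spent its last day in medium low in serum. In the PMA experiment 3 libraries were made 24 h after PMA (phorbol 12-myristate 13-acetate, an activator of protein kinase C) was added at 40 nM, and 3 from untreated controls. In the ConA experiment 3 libraries were made 24 h after ConA (concanavalin A, which binds mannose-rich glycans) was added at 40 µg/mL, and 3 from untreated controls of that experiment. Both agents are used with these cells to raise the activity of membrane-bound matrix metalloproteinases. HT1080 is 1 cell line, and the labels do not say whether the 3 libraries of a group came from separate cultures, so the p-values measure only the spread between these libraries, which may be technical.

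VEGF ligands act on endothelial cells through the receptor tyrosine kinases FLT1, KDR and FLT4. VEGFA, which hypoxia induces, drives sprouting of blood vessels mainly through KDR. VEGFC drives growth of lymphatic vessels through FLT4, while PGF and VEGFB bind FLT1. FGF2 binds heparan sulfate and signals through the FGF receptors on many cell types. PDGF dimers recruit pericytes and fibroblasts through PDGFRA and PDGFRB. Tumour cells are a known source of all 3 kinds of ligand.

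RNA was polyA-selected and sequenced, and the values are normalized counts per gene, each library divided by 1 factor, without division by gene length. The reads on the listed genes were estimated at 33615792 to 45564303 a library. Of the 9 mesenchymal markers, 9 were listed in the PMA experiment and 8 in the ConA experiment, where THY1 was not listed. Their summed normalized count was 496677 to 509925 in the PMA controls and 483981 to 506674 with PMA. Of the most abundant of them FN1 went from between 165187 and 170977 to between 111935 and 115608 with PMA. SPARC went from between 62498 and 63938 to between 21817 and 22067. VIM was higher, from between 192590 and 200639 to between 267398 and 285122, and so was CD44, from between 49900 and 54565 to between 56618 and 57877. The mesenchymal sum was 563201 to 642952 in the ConA controls and 430815 to 467787 with ConA, with no overlap, and of its most abundant genes VIM and FN1 were lower while SPARC overlapped. The erythroid markers were not listed. The endothelial genes CDH5, ERG, CLDN5 and EMCN were not listed in either experiment. The summed count of the other 6 endothelial markers went from between 4848 and 5175 to between 9519 and 9999 with PMA and from between 5390 and 5972 to between 6666 and 7403 with ConA. With PMA TIE1 and ROBO4 were higher (means of 2478 to 4539 and 1741 to 4395). EGFL7 was lower with PMA (658 to 614) and so was VWF (27.7 to 8.01), and PECAM1 and TEK overlapped. With ConA ROBO4 was higher (means of 1536 to 2647), as were PECAM1 (60.4 to 96.7) and TEK (54.1 to 73.0). VWF was lower with ConA (69.5 to 36.5), and TIE1 and EGFL7 overlapped. All 10 T and NK cell markers were listed in the PMA experiment. Their sum there went from between 991 and 1120 in the controls to between 1568 and 2162 with PMA. CD3D, CD2 and KLRD1 overlapped there, and the others were higher with PMA. Only CD3D and GZMA of these 10 were listed in the ConA experiment. Their sum was 34.4 to 40.1 in the controls and 85.1 to 112 with ConA. Only GZMA was higher there (means of 11.5 in the controls and 75.3 with ConA), and CD3D overlapped (means of 26.6 and 24.2). Of the 9 monocyte and macrophage markers, CD14, FCGR1A, C1QA, C1QB and MARCO were not listed. The sum of the 4 others went from between 5301 and 5768 to between 7535 and 7738 with PMA. With ConA this sum went from between 6175 and 6604 to between 17578 and 20786. Almost all of each sum was CD68. CD68 was higher with PMA (means of 5181 to 7270), LYZ was lower (10.8 to 2.77), and CSF1R and ITGAM overlapped. CD68 and ITGAM were higher with ConA (5925 to 18897 and 3.69 to 29.4), CSF1R was lower (357 to 260), and LYZ overlapped. The sum of the 5 platelet markers listed in the PMA experiment went from between 44.7 and 79.5 to between 87.1 and 101 with PMA. Only PPBP of these was higher, from between 0 and 4.47 to between 59.9 and 64.7. ITGA2B (10.8 to 12.9 in the controls, 1.16 to 5.99 with PMA) and TREML1 (3.58 to 9.93 and 0.951 to 2.39) were lower. GP1BA and TUBB1 overlapped. In the ConA experiment the sum of 4 platelet markers was 52.1 to 67.8 in the controls and 47.1 to 58.4 with ConA. The sum of the 8 pericyte and smooth muscle markers was 1575 to 1776 in the PMA controls and 1867 to 1956 with PMA. It was 2578 to 3024 in the ConA controls and 2829 to 3122 with ConA. Of these markers ABCC9 went from between 17.5 and 42.0 to between 261 and 308 with PMA. With ConA it went from between 5.00 and 9.02 to between 108 and 147. NOTCH3 went the other way, from between 641 and 702 to between 241 and 287 with PMA. With ConA NOTCH3 went from between 1072 and 1388 to between 773 and 905. KCNJ8 and MYH11 were also lower with PMA, RGS5 and CSPG4 were higher, and DES and CNN1 overlapped. With ConA CNN1 was also lower, CSPG4, DES and KCNJ8 were higher, and RGS5 and MYH11 overlapped. The epithelial sum went from between 129.99 and 136 (2 of 7 markers listed, EPCAM and CDH1 not listed) to between 65.9 and 81.3 with PMA and was 149 to 159 in the ConA controls and 158 to 209 with ConA (5 of 7 listed). The part of these values in the results below was not tested.

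VEGFC, FGF2, PDGFA and PDGFB were higher with PMA and VEGFA, VEGFB, PGF and PDGFC were lower, and the 7 of them that could be tested with ConA went the same way there. The changes past the call rule were a rise of VEGFC with both agents, a rise of FGF2 with ConA and a fall of VEGFA with ConA. A gene was called where its absolute log2 fold change was at least 1 and its adjusted p at most 0.0001 (limma, Benjamini-Hochberg over all genes tested), and "rose" and "fell" are used below for adjusted p values up to 0.05. With PMA 1 of the 8 factors was called higher, where 4.03% of all genes tested were, and 0 lower, where 4.61% were. By the p rule alone 4 rose and 4 fell, beside 32.8% and 30.5% of all genes. PMA and control libraries were apart for 8 of 8, beside 67.9% of all genes. With ConA 2 of 7 tested were called higher and 1 lower, beside 5.83% and 2.88% of all genes. By the p rule alone 3 rose and 4 fell, beside 32.8% and 32.5%. ConA and control libraries were apart for 7 of 7, beside 69.3% of all genes. These are levels of transcript, not of secreted protein, and in bulk RNA a change in all cells and a change in a share of them cannot be told apart.

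**Figure D1:**
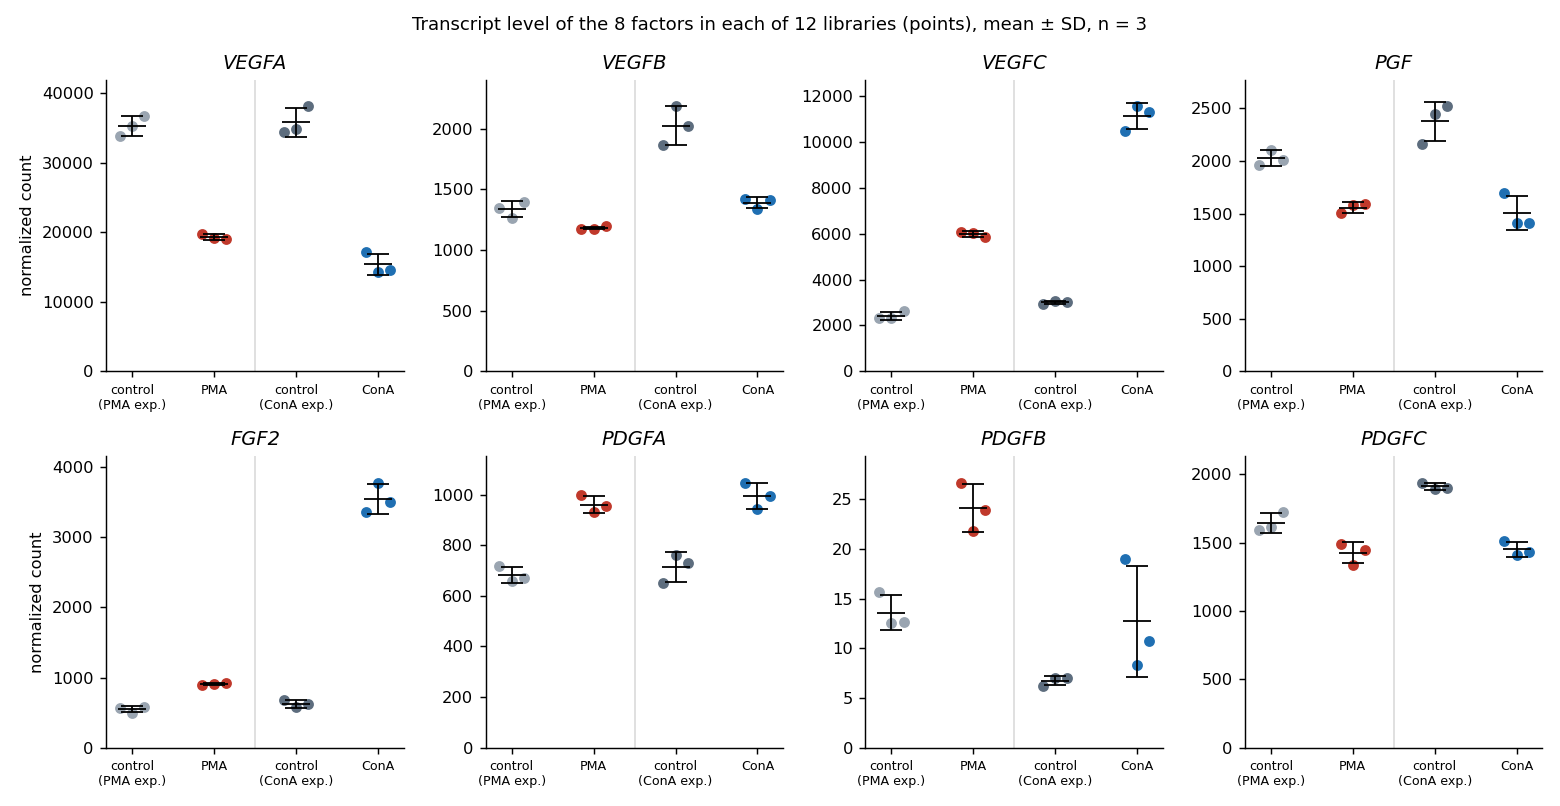
Normalized count (linear axis from 0) of each of the 8 factors in each of the 12 libraries, with points for libraries and bars for mean ± SD, n = 3, and a grey line between the experiments. VEGFC and FGF2 sit highest in the ConA libraries, where VEGFA sits lowest.

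VEGFA was the factor with the most transcript in untreated cells, and it fell with both agents. Its normalized count was 33826, 35258 and 36742 in the PMA controls and 19742, 19192 and 18979 with PMA. In the ConA experiment it was 34381, 34923 and 38142 in the controls and 17136, 14345.5 and 14653 with ConA. The controls of both experiments were alike, and every treated library was below every control. The fall was 1.83-fold with PMA (log2 fold change -0.87, SE 0.042, limma adjusted p = 8.96e-09), short of the fold threshold, and 2.33-fold with ConA (-1.22, SE 0.070, adjusted p = 2.48e-09), which was called. Under quantile normalization the change with PMA was -1.07 (adjusted p = 1.33e-08) and was called. Without a trend in the variance the change with ConA was not called (adjusted p = 0.000128). Over all alternatives the adjusted p for VEGFA ran from 8.99e-11 to 5.03e-05 with PMA and from 1.34e-11 to 0.000128 with ConA.

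VEGFC moved the other way. Its normalized count was 2329, 2318 and 2622 in the PMA controls and 6074, 6015 and 5845 with PMA. It was 2931, 3076 and 3005 in the ConA controls and 10481, 11553 and 11322 with ConA. The groups stood far apart in both experiments, and the ConA libraries held the highest counts. The rise was 2.47-fold with PMA (log2 fold change 1.30, SE 0.051, limma adjusted p = 1.62e-09) and 3.70-fold with ConA (1.89, SE 0.054, adjusted p = 9.40e-13), and both were called.

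The sequence upstream of VEGFC is shown because it is the one factor called with both agents. The 250 bases before its start were taken from RefSeq (GRCh38.p14, chr4:176792923-176793172, minus strand, printed 5′ to 3′), and the capitals mark a match to the NF-kB consensus, searched on both strands, that begins 120 bases before the start.
VEGFC: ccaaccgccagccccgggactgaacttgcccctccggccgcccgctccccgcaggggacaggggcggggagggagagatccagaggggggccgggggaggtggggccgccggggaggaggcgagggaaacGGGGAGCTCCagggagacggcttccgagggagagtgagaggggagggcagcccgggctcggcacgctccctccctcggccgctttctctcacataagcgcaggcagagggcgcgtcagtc
Of 35116 such windows over all RefSeq promoters, 9.96% held an NF-kB match, so a match is common. The same VEGFC window held 2 GC boxes (GGGCGG, in 42.6% of windows), and its GC content was 74%, beside a median of 58% over all windows. It held neither an AP-1 motif (TGACTCA or TGAGTCA, in 4.20% of windows) nor the core of the hypoxia response element (ACGTG, in 18.5%). Windows were given for 5 of the 8 factors (9 windows in all, for VEGFB, VEGFC, PGF, FGF2 and PDGFA). None of the 9 held an AP-1 motif or ACGTG, and the VEGFC window was the only one with an NF-kB match. A match is a run of letters, and binding of any factor was not measured.

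PGF and VEGFB, the ligands that bind FLT1 but not KDR, fell with both agents by less than the fold threshold. PGF was at 1958, 2106 and 2008 normalized counts in the PMA controls and 1501, 1579 and 1590.1 with PMA, and at 2161, 2443 and 2519 in the ConA controls and 1694, 1407 and 1413 with ConA. It fell by 0.38 on the log2 scale with PMA (SE 0.047, limma adjusted p = 2.88e-05) and by 0.66 with ConA (SE 0.080, adjusted p = 5.53e-06). No treated PGF library reached the lowest control of its experiment. VEGFB was at 1345, 1265 and 1397 in the PMA controls and 1175, 1174 and 1195 with PMA, and at 1865, 2185 and 2023 in the ConA controls and 1422, 1341 and 1413 with ConA. It fell by 0.18 with PMA (SE 0.050, limma adjusted p = 0.00980) and by 0.54 with ConA (SE 0.066, adjusted p = 6.51e-06). The groups of VEGFB did not overlap either, though its controls in the ConA experiment stood above those of the PMA experiment, and the 2 sets were normalized apart.

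FGF2, the basic fibroblast growth factor, rose with both agents and far more with ConA. Its normalized count was 569, 501 and 586 in the PMA controls and 893, 916 and 927 with PMA. It was 688, 574 and 627 in the ConA controls and 3364, 3780.3 and 3498 with ConA. Controls were alike in both experiments, PMA libraries stood just above them and ConA libraries well above those. The rise was 1.65-fold with PMA (log2 fold change 0.73, SE 0.067, limma adjusted p = 2.64e-06), below the fold threshold, and 5.64-fold with ConA (2.49, SE 0.073, adjusted p = 1.44e-12), which was called. FGF2 shares 804 of its 6775 exon bases (11.9%) with NUDT6, an antisense gene whose protein is a nudix hydrolase, and whether the counting used strand is not given in the sources used here, so reads of the shared stretch cannot be told apart. NUDT6 itself fell by 0.35 on the log2 scale with PMA (limma adjusted p = 0.0191), from 175 ± 14.7 to 137 ± 12.6 normalized counts (SD, n = 3). With ConA it was at 196 ± 22.1 beside 214 ± 8.43 in the controls (log2 fold change -0.13, adjusted p = 0.314).

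The sequence upstream of FGF2 is shown because its rise with ConA was the largest change among the 8 factors. The window is chr4:122826581-122826830 on the plus strand (RefSeq, GRCh38.p14), and it is all in lower case since none of the AP-1, NF-kB and ACGTG searches matched in it.
FGF2: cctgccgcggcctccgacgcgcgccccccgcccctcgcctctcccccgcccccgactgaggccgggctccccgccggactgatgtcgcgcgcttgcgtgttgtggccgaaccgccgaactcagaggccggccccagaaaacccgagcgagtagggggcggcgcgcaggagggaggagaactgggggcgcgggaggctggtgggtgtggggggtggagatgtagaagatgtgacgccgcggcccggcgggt
It held 3 GC boxes and its GC content was 75.2%, close to that of the VEGFC window.

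Of the PDGF chains, which pair into dimers, PDGFA rose and PDGFC fell with both agents. PDGFA was at 719, 660.0 and 669 normalized counts in the PMA controls and 998, 931 and 953 with PMA, and at 649, 761 and 730.3 in the ConA controls and 1047, 945 and 994 with ConA. The rise was 1.41-fold with PMA (log2 fold change 0.49, SE 0.058, limma adjusted p = 1.85e-05) and 1.40-fold with ConA (0.48, SE 0.076, adjusted p = 7.14e-05). The lowest treated library of PDGFA was above the highest control in both experiments. PDGFC was at 1593, 1612 and 1727 in the PMA controls and 1489, 1340.3 and 1450.0 with PMA, and at 1940.4, 1895 and 1900.3 in the ConA controls and 1516, 1411 and 1434 with ConA. It fell by 0.21 on the log2 scale with PMA (SE 0.054, limma adjusted p = 0.00627) and by 0.40 with ConA (SE 0.057, adjusted p = 2.91e-05). Its groups did not overlap in either experiment.

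PDGFB was close to the lower limit of the measurement. It was at 15.7, 12.5 and 12.6 normalized counts in the PMA controls and 26.7, 21.9 and 23.9 with PMA, estimated as 14 to 17 and 20 to 23 reads a library. All PMA libraries were above all controls (log2 fold change 0.79, SE 0.27, limma adjusted p = 0.0241), but the adjusted p was 0.0641 without PMA control replicate 2, 0.0652 without PMA control replicate 3 and 0.0733 without PMA replicate 1 (0.00199 to 0.0733 over all alternatives). In the ConA experiment PDGFB was at 6.25, 7.004 and 7.01 in the controls and 19.0, 8.36 and 10.8 with ConA. Its mean there was 9.74, under the minimum of 10 for a test. Without that minimum its log2 fold change was 0.75 (95% interval -0.14 to 1.64, limma adjusted p = 0.131), and the highest value came from ConA replicate 1.

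**Figure D2:**
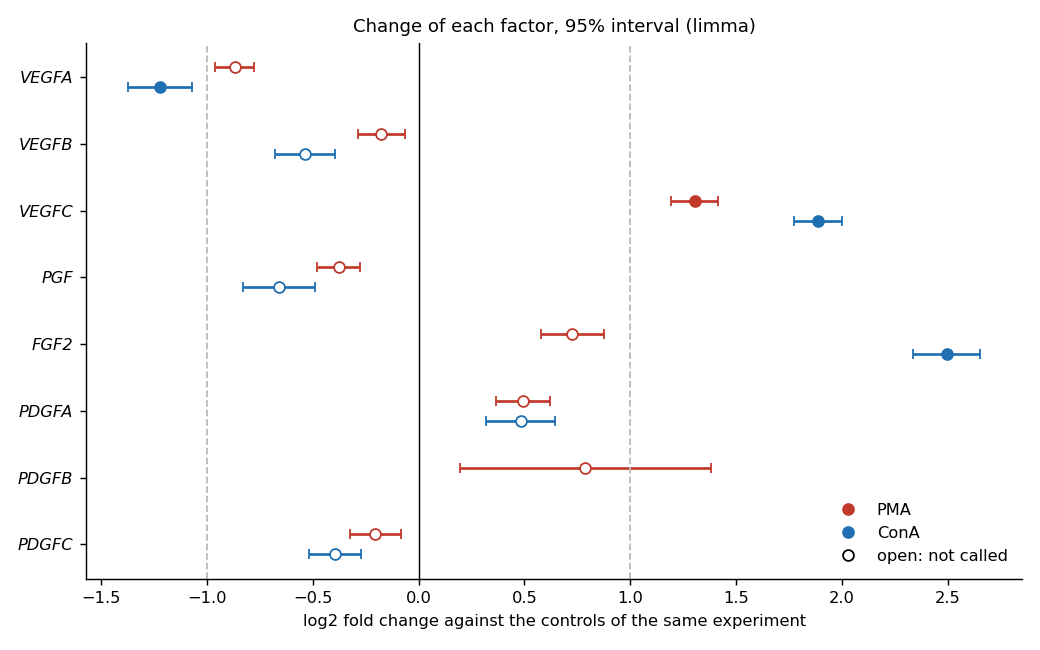
Log2 fold change (x axis) of each factor with PMA (red) and ConA (blue) against the controls of the same experiment, with 95% intervals from limma, dashed lines at the fold threshold and filled points for called changes. The filled points are VEGFC with both agents and FGF2 and VEGFA with ConA, and PDGFB with ConA was not tested.

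The change with PMA was then compared with the change with ConA in 1 fit over all 12 libraries, in which each change is taken against the controls of its own experiment. FGF2 was the only factor whose difference was called, with a change lower by 1.77 on the log2 scale with PMA than with ConA (log2 difference -1.77, SE 0.10, limma adjusted p = 1.50e-10), or 3.41-fold. Called differences towards ConA were found for 6.89% of all genes and towards PMA for 3.67%, and 0 of the 8 factors had one towards PMA. The rise of VEGFC was also smaller with PMA (log2 difference -0.58, SE 0.074, limma adjusted p = 3.08e-06). By an adjusted p up to 0.05 alone 2 factors (FGF2 and VEGFC) had the higher change with ConA, beside 30.7% of all genes, and 4 (VEGFA, VEGFB, PGF and PDGFC) with PMA, beside 30.4%.

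These 4 were the factors that fell with both agents, and the fall was the deeper with ConA. The log2 difference was 0.36 for VEGFB (limma adjusted p = 0.00127) and 0.35 for VEGFA (adjusted p = 0.00200), and VEGFA lost it under quantile normalization (0.06, adjusted p = 0.591). The adjusted p of VEGFA ran from 6.05e-05 to 0.591 over the alternatives and that of VEGFB from 0.000278 to 0.00467. It was 0.28 for PGF (limma adjusted p = 0.0221, 0.00138 to 0.0648 over the alternatives), which was no longer past 0.05 without PMA control replicate 1, ConA replicate 2, ConA replicate 3 or ConA control replicate 6, after quantile normalization or without a variance trend. It was 0.19 for PDGFC (limma adjusted p = 0.0390, 0.0123 to 0.106 over the alternatives), which was no longer past 0.05 without any one of PMA control replicates 1 and 2, PMA replicates 1 and 3, ConA replicates 2 and 3 and ConA control replicates 4 and 6, or after quantile normalization. For PDGFA the difference was 0.01 (95% interval -0.19 to 0.22, limma adjusted p = 0.928). For PDGFB it was 0.04 with an interval from -0.95 to 1.03, too wide to place the 2 changes.

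Levels of different factors can be set side by side only per length of transcript. Normalized counts were divided by the kilobases of exon in protein-coding transcripts of the basic set of GENCODE release 29. These may not be the gene models the counts were made with. For VEGFA this length was 3768 bases, beside 14431 over all its transcripts, so its level per kb and its place in the order may depend on the choice. On this scale VEGFA led in the PMA controls (9362 ± 387 normalized counts per kb, SD, n = 3) and the ConA controls (9505 ± 540), and PDGFB was last in every group. With PMA VEGFA was at 5123 ± 105 per kb and VEGFC came closer, from 1174 ± 83.7 to 2896 ± 57.5. With ConA VEGFC stood first at 5387 ± 273 per kb, above VEGFA at 4081 ± 406, and their libraries did not overlap, while undivided normalized counts put VEGFA above VEGFC there. FGF2 was 7th of 8 in both sets of controls and with PMA (81.5, 92.9 and 135 per kb) and 5th with ConA (524 ± 31.4). PDGFA stood below PDGFC per kb in both sets of controls and above it with both agents. Undivided normalized counts put PDGFC above PDGFA in every group, so this order too may depend on the lengths chosen. Neighbours in the order whose libraries overlapped were VEGFB and PGF in the PMA controls and VEGFB and VEGFC in the ConA controls.

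**Figure D3:**
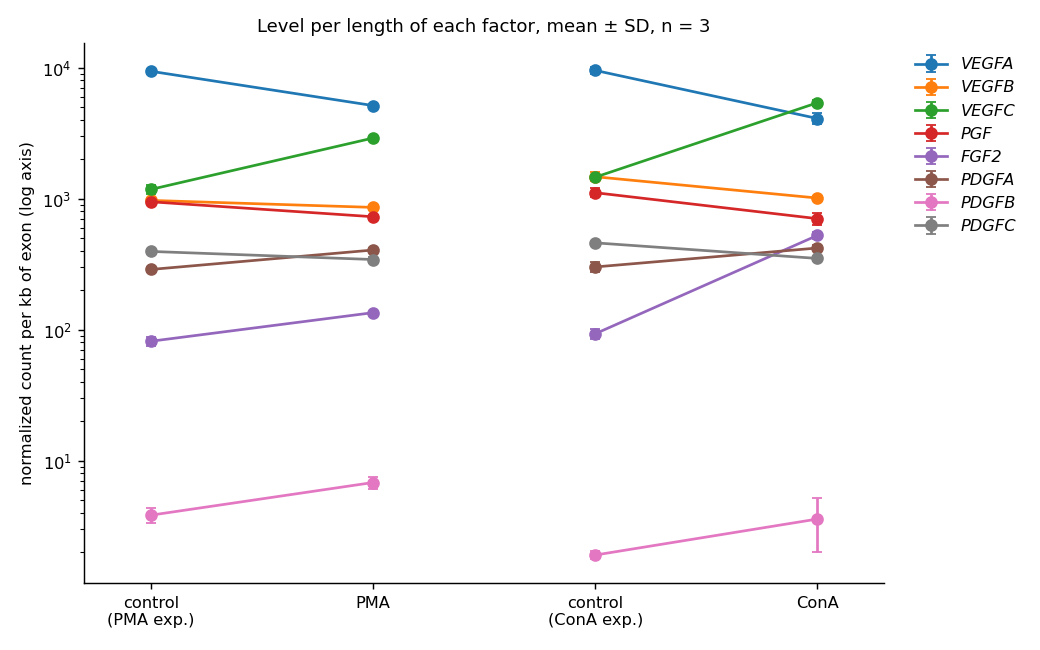
Normalized count per kb of exon (log axis) of each factor in the 4 groups, as mean ± SD, n = 3, with lines from controls to treated cells of the same experiment. On this scale, which depends on the exon lengths chosen, the lines of VEGFC and VEGFA cross with ConA, and those of PDGFA and PDGFC cross with both agents.

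Ratios within a library do not depend on the factor by which that library was divided. VEGFC to VEGFA was 0.0687 ± 0.00282 in the PMA controls and 0.310 ± 0.00323 with PMA (ratio of normalized counts, mean ± SD, n = 3), a ratio of means of 4.51. It was 0.0840 ± 0.00476 in the ConA controls and 0.730 ± 0.104 with ConA, a ratio of means of 8.68. FGF2 to VEGFA was 0.0157 ± 0.00133 in the PMA controls and 0.0473 ± 0.00183 with PMA, a ratio of means of 3.02. With ConA that ratio went from 0.0176 ± 0.00205 to 0.233 ± 0.0340, a ratio of means of 13.2. In both pairs every treated library was above every control, since VEGFA fell while VEGFC and FGF2 rose. VEGFC to FGF2 parted the agents, since it went from 4.40 ± 0.274 to 6.56 ± 0.246 with PMA and from 4.80 ± 0.547 to 3.14 ± 0.0921 with ConA. PDGFA to PDGFC went from 0.416 ± 0.0325 to 0.674 ± 0.0188 with PMA and from 0.374 ± 0.0349 to 0.684 ± 0.0129 with ConA. PGF to VEGFA also went up, from 0.0574 ± 0.00258 to 0.0807 ± 0.00411 with PMA and from 0.0663 ± 0.00356 to 0.0978 ± 0.00126 with ConA, since PGF fell by less than VEGFA.

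**Figure D4:**
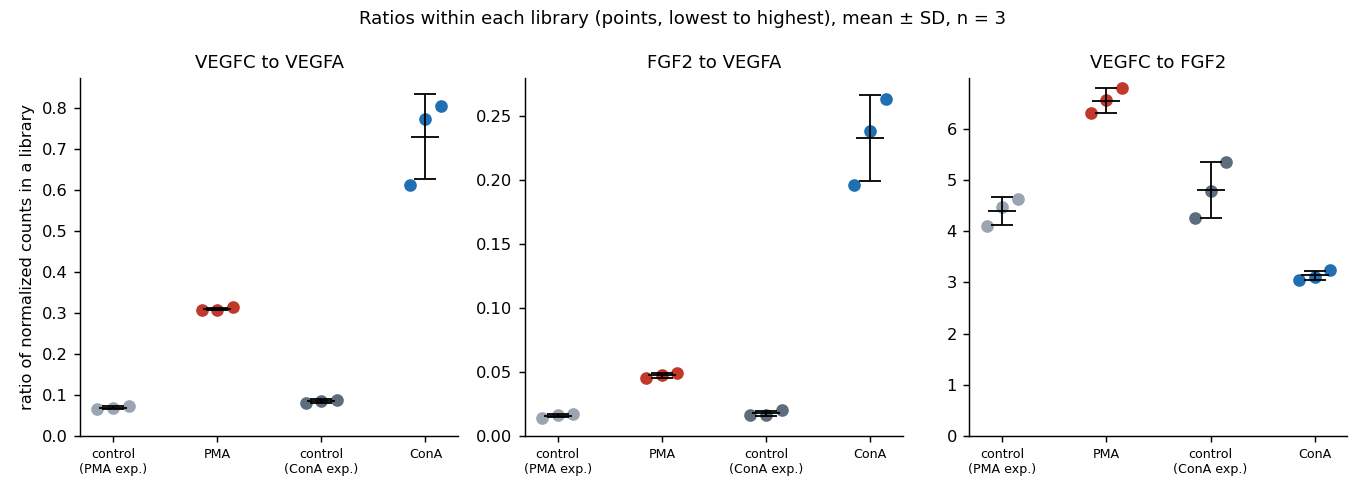
Ratios of normalized counts within each library (points, ordered from lowest to highest within a group; linear axes from 0), with mean ± SD, n = 3. VEGFC to VEGFA and FGF2 to VEGFA are higher with both agents, and VEGFC to FGF2 is higher with PMA and lower with ConA.

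The receptors of these ligands were read in the same libraries. Of 13 receptors and co-receptors 11 were tested with PMA, of which 2 were called higher (FLT1 and PDGFRA) and 2 lower (PDGFRB and PDGFRL), beside 4.03% and 4.61% of all genes, with a median log2 fold change of -0.07 beside 0.00 over all genes. With ConA 10 were tested, of which 1 was called higher (PDGFRL) and 0 lower, beside 5.83% and 2.88% of all genes, with a median of -0.04 beside -0.00 over all genes. FLT4, the main receptor of VEGFC, was not listed in either experiment. FLT1, which binds VEGFA, VEGFB and PGF, went from between 4.47 and 11.7 normalized counts in the controls to between 53.4 and 82.7 with PMA (log2 fold change 3.02, SE 0.33, limma adjusted p = 1.14e-05). It was at 1.04 to 5.00 in the ConA controls and 9.01 to 17.1 with ConA, too low to be tested there, and the changes with the 2 agents were not shown to differ (log2 difference 1.03, SE 0.61, limma adjusted p = 0.153). KDR, the main signalling receptor of VEGFA, rose by 1.01 (PMA) and 1.11 (ConA) on the log2 scale (limma adjusted p = 0.000738 and 0.00191), from between 30.4 and 48.7 to between 77.8 and 83.6 normalized counts and from between 21.0 and 43.1 to between 50.1 and 75.5. These VEGF receptors stayed at low counts in all libraries.

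Among the PDGF receptors, PDGFRA rose and PDGFRB fell with both agents. PDGFRA, which binds PDGF-AA and PDGF-CC, was at 19.9 to 22.4 normalized counts in the PMA controls and 88.2 to 111 with PMA (log2 fold change 2.16, SE 0.18, limma adjusted p = 1.11e-06). With ConA it went from between 18.0 and 27.0 to between 45.1 and 55.7 (1.16, SE 0.23, adjusted p = 0.000515), which was not called. PDGFRB, which binds PDGF-BB, was at 1069 to 1199 in the PMA controls and 314 to 391 with PMA (-1.66, SE 0.085, limma adjusted p = 1.63e-08). With ConA it went from between 1824 and 1998 to between 1115 and 1304 (-0.68, SE 0.069, adjusted p = 9.55e-07). PDGFRL, a secreted protein similar to the ligand-binding part of PDGFRB, moved in opposite directions, from between 272 and 318 to between 44.7 and 55.1 with PMA and from between 426 and 446 to between 1995 and 2551 with ConA. Its log2 difference between the agents was -4.94 (SE 0.14, limma adjusted p = 8.01e-15). The FGF receptors moved less: the log2 fold change of FGFR1 was 0.04 with PMA (limma adjusted p = 0.483) and 0.30 with ConA (adjusted p = 0.000237), that of FGFR3 -0.68 (adjusted p = 0.00261) and -0.05 (adjusted p = 0.817), that of FGFR4 -1.09 (adjusted p = 0.000160) and -0.35 (adjusted p = 0.0499), and that of FGFRL1, which lacks a kinase domain, -0.07 (adjusted p = 0.349) and -0.48 (adjusted p = 1.10e-05). FGFR2 was listed at levels too low to be tested. The VEGF co-receptor NRP1 fell by 0.56 with PMA and by 0.30 with ConA (limma adjusted p = 8.89e-07 and 0.000260). NRP2, which also binds VEGFC, rose by 0.75 with PMA (limma adjusted p = 2.07e-08) and stood at -0.03 under ConA (adjusted p = 0.661), and its log2 difference between the agents was 0.78 (adjusted p = 4.67e-08).

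**Figure D5:**
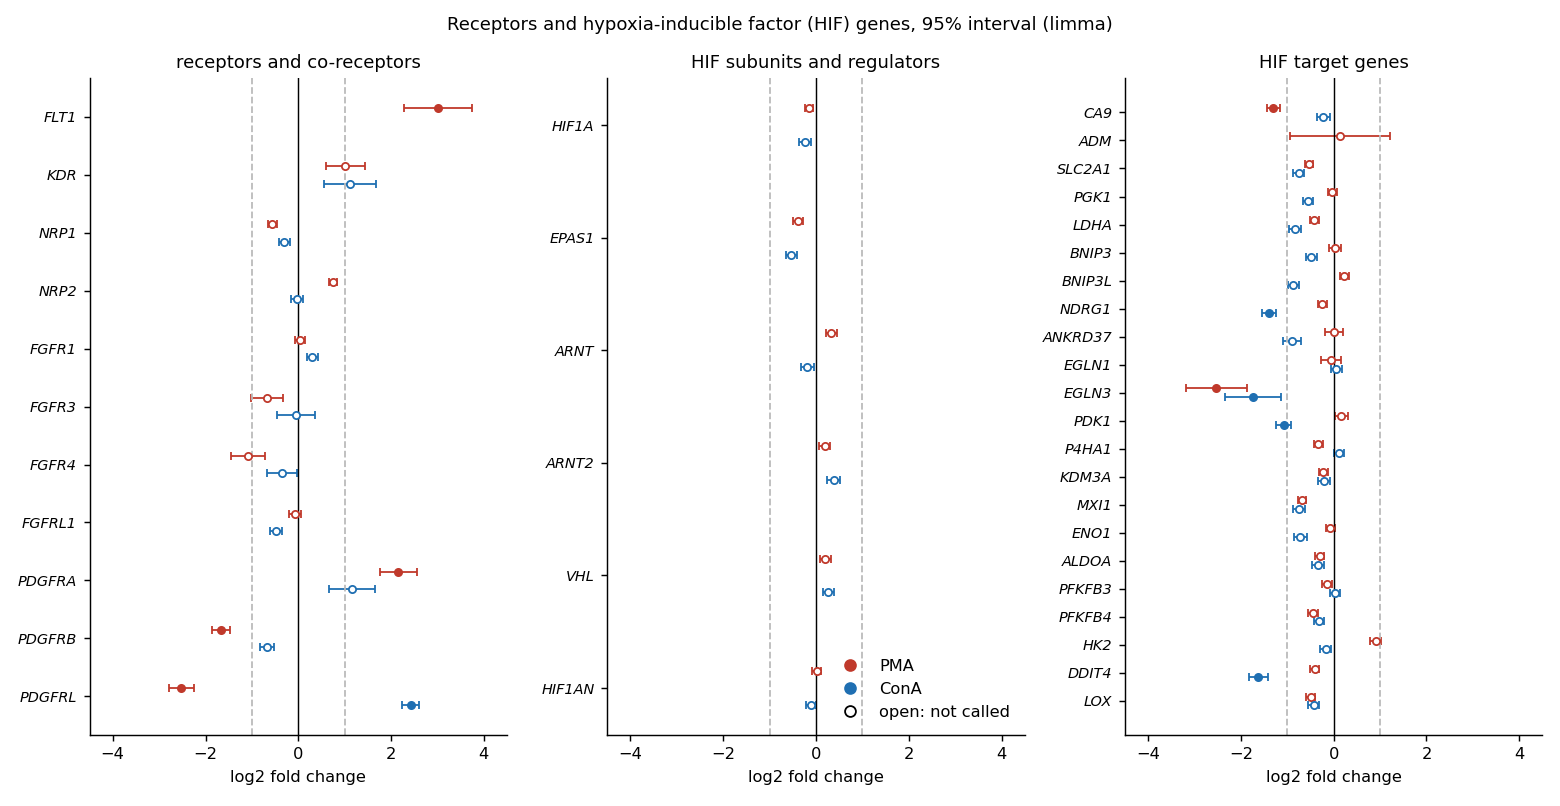
Log2 fold change (x axis) of receptors, HIF subunits and HIF target genes with PMA (red) and ConA (blue), with 95% intervals from limma, dashed lines at the fold threshold and filled points for called changes, where tested. Called HIF targets lie to the left of 0, PDGFRL has called changes on both sides of 0, and no HIF subunit or regulator is called.

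Few other ligands of these families were measured. Of 20 symbols searched (VEGFD also under its older symbol), 4 were listed in each experiment. Of these 2 were tested with PMA and 3 with ConA, and 1 was called higher with each agent, beside 4.03% and 5.83% of all genes. This was FGF5, another heparin-binding FGF, which went from between 264 and 293 to between 1564 and 1658 normalized counts with PMA (log2 fold change 2.55, limma adjusted p = 3.87e-11). With ConA FGF5 went from between 264 and 285 to between 562 and 649 (1.13, adjusted p = 5.00e-08). The order of the agents for FGF5 was thus the reverse of that for FGF2 (log2 difference 1.42, SE 0.10, limma adjusted p = 2.54e-09). FGF1 rose by 0.96 on the log2 scale with PMA (limma adjusted p = 1.02e-05) and stood at 0.04 with ConA (adjusted p = 0.710). FGF20, too low to be tested with PMA, rose by 1.75 with ConA (limma adjusted p = 0.00212), which was not called. VEGFD and PDGFD were not listed.

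Genes that process the ligands or carry the heparan sulfate they bind were read next, 17 of 18 of which were listed and tested. With PMA 2 were called higher and 3 lower, beside 4.03% and 4.61% of all genes. By the p rule 3 rose and 10 fell with PMA, beside 32.8% and 30.5% of all genes (median log2 fold change -0.39 beside 0.00). With ConA 2 were called higher and 1 lower, beside 5.83% and 2.88%. By the p rule 4 rose and 6 fell with ConA, beside 32.8% and 32.5% of all genes (median -0.08 beside -0.00). HPSE, heparanase, which cleaves heparan sulfate chains, was called higher with both, from between 400 and 459 to between 2355 and 2429 normalized counts with PMA (2.52) and from between 343 and 380.4 to between 1199.6 and 1569.9 with ConA (2.00). SULF2, which removes sulfate groups from heparan sulfate, was called lower with both (-2.18 and -1.24). The syndecan SDC4, a core protein that carries heparan sulfate, was called higher with ConA (1.77) and stood at a log2 fold change of -0.18 under PMA (limma adjusted p = 0.00515). Other core proteins fell with ConA, SDC1 by 0.82, SDC2 by 0.99 and GPC1 by 0.91 (limma adjusted p = 2.14e-07, 7.65e-08 and 1.45e-08), while HSPG2, perlecan, rose by 0.60 (adjusted p = 8.54e-06) and SDC3 stood at -0.08 (adjusted p = 0.242). With PMA SDC2, SDC3, GPC1 and HSPG2 fell by 0.98, 0.55, 0.79 and 0.39 (limma adjusted p = 6.20e-08, 4.90e-06, 5.58e-07 and 0.000227) and SDC1 stood at -0.06 (adjusted p = 0.362). CCBE1, which assists the proteolytic maturation of VEGFC, was called higher with PMA (1.23) and rose by 0.24 with ConA (limma adjusted p = 0.00244). The proprotein convertase PCSK5 was called lower with PMA (-1.08) and PLAT, tissue plasminogen activator, was too (-1.62), while with ConA their log2 fold changes were -0.01 (limma adjusted p = 0.959) and -0.9996 (adjusted p = 1.12e-09).

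Of 15 other angiogenic factors 10 were tested with each agent, of which 1 was called higher and 1 lower with PMA, beside 4.03% and 4.61% of all genes (median log2 fold change -0.51 beside 0.00). With ConA 3 were called higher and 0 lower, beside 5.83% and 2.88% (median 0.62 beside -0.00). EDN1, endothelin 1, was called higher with PMA (1.84) and rose by 0.95 with ConA (limma adjusted p = 0.000415). ANGPT1, a ligand of the endothelial receptor TEK, was called lower with PMA (-3.62) and rose by 0.64 with ConA (limma adjusted p = 0.000259), and this difference was called (-4.25, adjusted p = 1.35e-10). The heparin-binding growth factors MDK and PTN (1.75 and 4.60) and the thymidine phosphorylase TYMP (1.78) were called higher with ConA. With PMA MDK fell by 0.77 (limma adjusted p = 4.14e-06) and TYMP stood at -0.08 (adjusted p = 0.673). PTN was too low to be tested with PMA, at 14.8 to 17.9 normalized counts in the controls and 0 to 3.802 with PMA, and went from between 23.0 and 28.1 to between 551 and 730 with ConA. Its difference between the agents was called (log2 difference -7.35, limma adjusted p = 4.56e-09), a size that depends on the pseudocount since 1 PMA library was at 0. Of 11 angiogenesis inhibitors 8 were tested with PMA, of which 1 was called higher and 3 lower (beside 4.03% and 4.61% of all genes), and 7 with ConA, of which 1 was called higher and 0 lower (beside 5.83% and 2.88%). With PMA the thrombospondins THBS1 (-1.76) and THBS2 (-1.09) and the vasohibin VASH1 (-1.22) were called lower, and SEMA3A, which competes with VEGFA for NRP1, was called higher (1.20). With ConA SEMA3A was again called higher (2.10), and THBS1, THBS2 and VASH1 fell by 0.51, 0.77 and 0.34 (limma adjusted p = 1.09e-06, 2.20e-07 and 0.00342).

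VEGFA is a known target of the hypoxia-inducible factors (HIF), so their subunits and other targets were listed beside it. None of the 6 subunits and regulators tested was called with either agent. Of all genes 4.03% were called higher and 4.61% lower with PMA, and 5.83% and 2.88% with ConA. By the p rule 3 of the 6 rose and 2 fell with PMA, beside 32.8% and 30.5% of all genes. With ConA 2 rose and 3 fell, beside 32.8% and 32.5%. The log2 fold changes (PMA first, then ConA) were -0.15 and -0.25 for HIF1A, -0.39 and -0.53 for EPAS1, 0.33 and -0.19 for ARNT, 0.19 and 0.38 for ARNT2, 0.20 and 0.27 for VHL, which marks the subunits for decay, and 0.01 and -0.10 for HIF1AN. Of the 22 HIF targets tested with PMA 0 were called higher and 2 lower, beside 4.03% and 4.61% of all genes, and 3 rose and 13 fell, beside 32.8% and 30.5% (median log2 fold change -0.24 beside 0.00 over all genes). Of the 21 tested with ConA 0 were called higher and 4 lower, beside 5.83% and 2.88% of all genes, and 0 rose and 18 fell, beside 32.8% and 32.5% (median -0.55 beside -0.00). EGLN3, a prolyl hydroxylase, was called lower with both agents, from between 49.6 and 90.3 to between 7.60 and 13.2 normalized counts with PMA (-2.53) and from between 39.1 and 54.2 to between 10.8 and 18.8 with ConA (-1.74). CA9, a carbonic anhydrase, was called lower with PMA (-1.30), and DDIT4 (-1.62), NDRG1 (-1.39) and the kinase PDK1 (-1.08) were called lower with ConA. PDK1 rose by 0.17 with PMA (limma adjusted p = 0.0405), and its difference between the agents was called (1.25, adjusted p = 8.17e-09).

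The genes whose pattern over the 12 libraries was most like that of a called factor were found by Pearson's r on log2 values with each experiment's mean removed, over 14660 genes. The points share the same treated and control libraries, so r is high for any gene that answers both agents in like proportion, and it is given as a description. For VEGFC they were TNIP1 (r = 0.998), NFKBIA (0.997) and TNFAIP3 (0.997), which encode inhibitors of NF-kB signalling. Their log2 fold changes were 1.28, 1.55 and 2.92 with PMA and 1.77, 2.26 and 4.09 with ConA. For VEGFA they were TMC7 (0.996), the glucose transporter SLC2A1 (0.995) and the glycogen phosphorylase PYGB (0.995), with log2 fold changes of -0.40, -0.54 and -0.88 with PMA and -0.58, -0.76 and -1.13 with ConA. SLC2A1 was also on the list of HIF targets, and it went from 21290 ± 589 to 14660 ± 385 normalized counts with PMA and from 21552 ± 679 to 12780 ± 938 with ConA (SD, n = 3). For FGF2 they were the ubiquitin ligase RFWD3 (0.996), MDGA1 (0.995) and the endoplasmic reticulum chaperone ERP44 (0.995), with log2 fold changes of 0.34, 0.48 and 0.22 with PMA and 0.98, 1.65 and 0.90 with ConA. All 3 of these rose less than FGF2 did with either agent.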

How the data were processed

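PolyA RNA of 12 HT1080 libraries (4 groups of 3) was sequenced by a service company. The deposited signal values give, for each gene symbol and in 1 table per experiment, counts that the authors divided by 1 factor per library, the tables being normalized apart. The submitters' processing notes name Partek, Bowtie2, STAR and DESeq2 and the builds hg19 and mm10, without their roles, and the strand setting is not given in the sources used here. Only 81.8% to 84.2% of low values came out as whole reads (within 0.05 reads), so no count test was run. The factors gave the estimated reads on the listed genes.

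Each agent was set against its controls in limma 3.58.1 (R 4.3.3, eBayes with a variance trend) on log2(value + 1), for genes with a mean of at least 10 over the 6 libraries (15153 with PMA, 15139 with ConA), with Benjamini-Hochberg adjustment. Fold changes are on the log2(value + 1) scale, which understates those of low genes. The difference between the agents was fitted over 12 libraries and 15030 genes. An exact permutation test of 3 against 3 cannot go below p = 0.1 and was not used. The 8 genes, the gene lists and the thresholds were chosen with earlier results of these data known. Named were the 8 genes, listed pathway genes that were called, all receptors and HIF subunits, and the 3 genes most like each called factor. Genes named as markers, NUDT6, FGF1, FGF20 and the heparan sulfate core proteins other than SDC4 were chosen after their values were seen. Alternatives were the pseudocount, the minimum, the scaling, the variance trend, the threshold, the replicate block, 1 joint fit and leaving out each library. The fit was tested on simulated data. Promoter windows came from RefSeq (GRCh38.p14) and exon lengths from GENCODE release 29.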

Additional observations from a re-analysis of the deposited data

Results flagged for a closer look

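One result was marked because the effects of the 2 agents differed in a test of the difference itself. The log2 fold change of FGF2 was lower with PMA than with ConA by 1.77 (log2 difference -1.77, SE 0.10, limma adjusted p = 1.50e-10, 9.96e-11 to 7.40e-07 over 20 alternatives). All 3 PMA libraries were above the 3 controls of their experiment, and all 3 ConA libraries were above theirs. The agents were given in separate experiments whose tables were normalized apart, and each change was taken within its own table. Groups of 3 libraries were not searched for single libraries that stand apart.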

How the results depend on the processing

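The number of factors called with PMA was 1 and became 2 under quantile normalization, when VEGFA was added (log2 fold change -1.07, limma adjusted p = 1.33e-08). It was 1 under every other alternative run, and the number called for the difference between the agents was 1 throughout. With ConA it was 3, and 2 without a variance trend, when VEGFA lost its call. Of the values for single factors, 378 kept their direction and their side of the call rule, 11 turned in direction, 1 gained a call and 1 lost it. The 11 were differences between the agents of PDGFA and PDGFB, which were close to 0 and fell below it on leaving out 1 library. Over all libraries left out in turn the difference ran from -0.0371 to 0.0777 for PDGFA and from -0.20 to 0.35 for PDGFB. Under quantile normalization the PDGFB difference was 0.73 (adjusted p = 0.203). PDGFB has no value with a minimum mean of 50. With the replicate block, possible in the PMA experiment only, 1 factor was called and the log2 fold change of VEGFC stayed 1.30 (adjusted p = 5.16e-09). Same-numbered libraries correlated at -0.06, 0.10 and 0.10 in their deviations from the group means, so the numbers were not taken to pair them. Treated and control libraries of the ConA experiment share no numbers. Of all called genes 46.6% were higher with PMA (51.8% after quantile normalization) and 66.9% with ConA (60.7%). Depth limits PDGFB, at 6 to 23 estimated reads a library.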
